A study of Mus musculus with 7 samples.

Results

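The genes described here are 47 regulators of repressive chromatin: subunits of Polycomb repressive complexes 1 and 2 (PRC1 and PRC2), the DNA methylation and demethylation enzymes, and the machinery of histone H3 lysine 9 methylation. They were taken as a list of symbols, with earlier results of these data known. All 47 were found once among the 55335 genes of the count files, and 46 of them passed the filter on low counts that left 13305 genes for testing. The exception was Cbx7, with 20 counts in all 7 samples together. Together the 47 genes took between 0.31% and 0.4% of a library's counts.

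The counts came from neural stem cells (NSCs) of FVB/N mice, grown as dividing cultures with EGF and bFGF, and read as unamplified cDNA in long reads on nanopore flow cells. There were 4 wild-type (WT) samples and 3 samples null for *Smchd1* through the MommeD1 mutation, with no other allele or treatment in any group. Batch 1, made with the DCS108 kit, held WT replicate 2 and *Smchd1*-null replicates 1 and 2. Batch 2, made with the DCS109 kit, held *Smchd1*-null replicate 3 beside WT replicates 3 and 4, and WT replicate 1 was split over both. The sources do not say whether replicates came from separate animals or cultures, so p-values measure only the spread between these samples. The mutation acts in every cell of the culture, so effects from before the cells were derived and effects in the culture cannot be told apart. In a bulk culture, less RNA per cell and fewer cells with the RNA cannot be told apart.

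Repressive chromatin is written, read and kept by a few families of enzymes. PRC2 methylates histone H3 at lysine 27, with Ezh1 or Ezh2 as its catalytic subunit, and PRC1 places ubiquitin on histone H2A through Ring1 or Rnf2. Dnmt3a and Dnmt3b set DNA methylation, Dnmt1 with Uhrf1 copies it at replication, and the TET enzymes oxidise it. Setdb1, the Suv39h enzymes and the Ehmt pair methylate H3 lysine 9, to which the HP1 proteins bind. SMCHD1, the product of *Smchd1*, is a chromosomal protein needed for silencing on the inactive X chromosome and at some gene clusters. Its loading onto the inactive X depends on the histone mark of PRC1, and LRIF1 binds both SMCHD1 and HP1.

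Library sizes ranged from 2.74 to 7.74 M (mega) counts, and CPM is a gene's count per M counts of its library after TMM scaling. *Smchd1* itself stood at 66.9, 56.4, 74.7 and 55.7 CPM in WT replicates 1 to 4 and 17.3, 12.8 and 18.4 CPM in *Smchd1*-null replicates 1 to 3, lower in every *Smchd1*-null sample than in any WT sample. Its log2 fold change was -2.15 with a 95% interval of -2.53 to -1.76 (limma adjusted p = 0.00011). Xist, the RNA that coats an inactive X chromosome, had at most 2 counts in any library, while Y-linked Ddx3y was between 37.9 and 58.9 CPM in all 7. All 10 neural stem cell markers were detected, with a summed level of 8349 to 13590.0 CPM, the highest in WT replicate 4. Most of this sum was Fabp7 (4511 to 9464 CPM) and Vim (2186 to 2554 CPM), while Prom1 was at 8.26 to 14.4 CPM. The microglial (6), fibroblast (6) and endothelial (5) marker genes summed to at most 2.23, 4.46 and 4.12 CPM.

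WT replicate 4 stood apart from the other 6 samples. Its astrocyte genes summed to 1012 CPM against 261 to 458 CPM elsewhere, its oligodendrocyte genes to 699.5 against 118 to 254 CPM, and its 15 proliferation genes to 1991 against 2850 to 3133 CPM. Its neuron genes summed to 477.6 against 395 to 417 CPM, and 5 of the 7 tested neuron genes were highest in this library. Map2, the largest of them, was not, at 342 CPM against 327 to 362 CPM. Its sample quality weight in the limma fit was the lowest at 0.447. The highest weights were 2.03 and 1.83, for *Smchd1*-null replicates 1 and 2, both of batch 1. *Smchd1*-null replicate 3 had 0.674, and WT replicates 1 to 3 had 1.06, 0.654 and 1.29. The limma fold changes thus rest most on the *Smchd1*-null libraries of batch 1. For Ezh2, Dnmt1, Uhrf1, Trim28 and Kdm2b the log2 fold change is given with and without WT replicate 4.

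The promoter sequences of these genes were searched for the letters of the E2F binding motif, since Dnmt1, Uhrf1 and Ezh2 are known as genes of dividing cells and were lowest in WT replicate 4, a choice made after their values were seen. RefSeq windows on GRCm38.p6, from 250 bases before to 50 bases after a start site, were found for 43 of the 47 genes. Both strands were searched for TTTCCCGC, TTTCGCGC, TTTGCCGC and TTTGGCGC. A run of 8 bases can match only 1 of them, but matches on opposite strands can overlap in part. At least 1 of these was present in 7 of the 43 genes (16.3%) and in 704 of all 27025 genes with a window (2.6%). No test was made of these shares. Members had more CpG sites in these windows: the median number of CpG in the 250 bases before the start was 20.5 over the 64 member windows and 6 over all 32851 windows. The 8 matches in members are shown to set them beside the levels below, each read 5′ to 3′ on the strand of its gene with the matched letters in capitals and 9 bases on either side.
Cbx3, chr6:51470439-51470464, plus strand, 168 bases before the start: gagccccgcTTTGGCGCgctccgaga
Dnmt1, chr9:20952826-20952851, minus strand, 219 bases before the start: tttccgcgcGCGCGAAAaagccgggg
Dnmt1, chr9:20952574-20952599, minus strand, base 34 after the start: ggggcagcgTTTGGCGCgggctgtgc
Ezh2, chr6:47595011-47595036, minus strand, base 4 after the start: gttgctgcgTTTGGCGCtcggtccgg
Phf19, chr2:34914168-34914193, minus strand, 208 bases before the start: caataattcGCGGGAAAacgcgaaaa
Suv39h1, chrX:8074409-8074434, minus strand, 64 bases before the start: aaggccggcGCGGCAAAcgtgggggc
Suz12, chr11:79992878-79992903, plus strand, 219 bases before the start: acccctcatTTTCCCGCgaattcagt
Uhrf1, chr17:56304119-56304144, plus strand, 185 bases before the start: cgagtcgggTTTCGCGCgcccaggcg

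Dnmt1 and Uhrf1 were the members with the match TTTCGCGC, which 0.323% of all windows hold, and both act together at the replication fork. The 250 bases before the start are shown for both, with the match in capitals. Both windows belong to start sites inside the annotated genes, so the bases shown lie within the gene and can include transcribed sequence. They held 26 CpG sites for Dnmt1 and 30 for Uhrf1. A match is a run of letters, and binding of a factor was not measured.
Dnmt1, chr9:20952624-20952873, minus strand: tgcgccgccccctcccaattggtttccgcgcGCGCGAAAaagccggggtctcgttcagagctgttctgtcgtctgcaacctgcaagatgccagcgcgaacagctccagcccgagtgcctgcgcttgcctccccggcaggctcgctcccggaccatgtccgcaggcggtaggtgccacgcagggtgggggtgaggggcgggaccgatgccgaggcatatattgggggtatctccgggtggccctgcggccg
Uhrf1, chr17:56304063-56304312, plus strand: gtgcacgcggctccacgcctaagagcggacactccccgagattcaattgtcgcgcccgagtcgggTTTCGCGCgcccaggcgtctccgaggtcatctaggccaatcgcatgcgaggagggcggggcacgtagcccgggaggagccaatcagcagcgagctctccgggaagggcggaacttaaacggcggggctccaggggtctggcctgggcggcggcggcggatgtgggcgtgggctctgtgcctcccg

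NSCs expressed a nearly complete set of these regulators, over a wide range. Long reads of unfragmented cDNA should in theory give about a read for each molecule whatever its length. CPM is therefore taken as an approximate measure of molecules, which was not tested. Gene length did move with the fold change in these libraries, as given below. Levels in CPM per kb of gene length are given beside CPM for comparison, and the order of the genes depended on this choice. In CPM the highest WT means were those of Rbbp4 at 412 ± 36.9 (SD, n = 4), a histone-binding subunit shared by PRC2 and other complexes, the HP1 gene Cbx5 at 321 ± 35.1, Trim28 at 307 ± 68.3, the corepressor that brings Setdb1 to its targets, and Rbbp7, the paralog of Rbbp4, at 248 ± 46.2. Per kb the order was Rbbp7 at 85.3 ± 15.9, Trim28 at 73.9 ± 16.4, Yaf2 at 71.9 ± 8.14, a subunit of variant PRC1 that was at place 9 in CPM, and Rbbp4 at 47.2 ± 4.22 CPM per kb. Of the HP1 genes, all 4 WT values of Cbx5 lay above those of Cbx3 and Cbx1 in CPM, while per kb the WT values of the 3 genes overlapped. At the other end were Dnmt3b at 5.14 ± 1.05 and Ezh1 at 4.91 ± 0.772 CPM, and per kb Ezh1 at 0.66 ± 0.104 and Kdm2b at 0.563 ± 0.247 CPM per kb. Cbx7, a chromodomain reader of canonical PRC1, was last on both scales, with 0 to 4 counts per library. Most neighbours in the order overlapped. All 4 WT values of a gene lay above all 4 of the next gene in CPM only for Rbbp7 over Cbx3, Bmi1 over Rnf2 and Ezh1 over Cbx7, and per kb only for Yaf2 over Rbbp4 and Kdm2b over Cbx7.

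**Figure D1:**
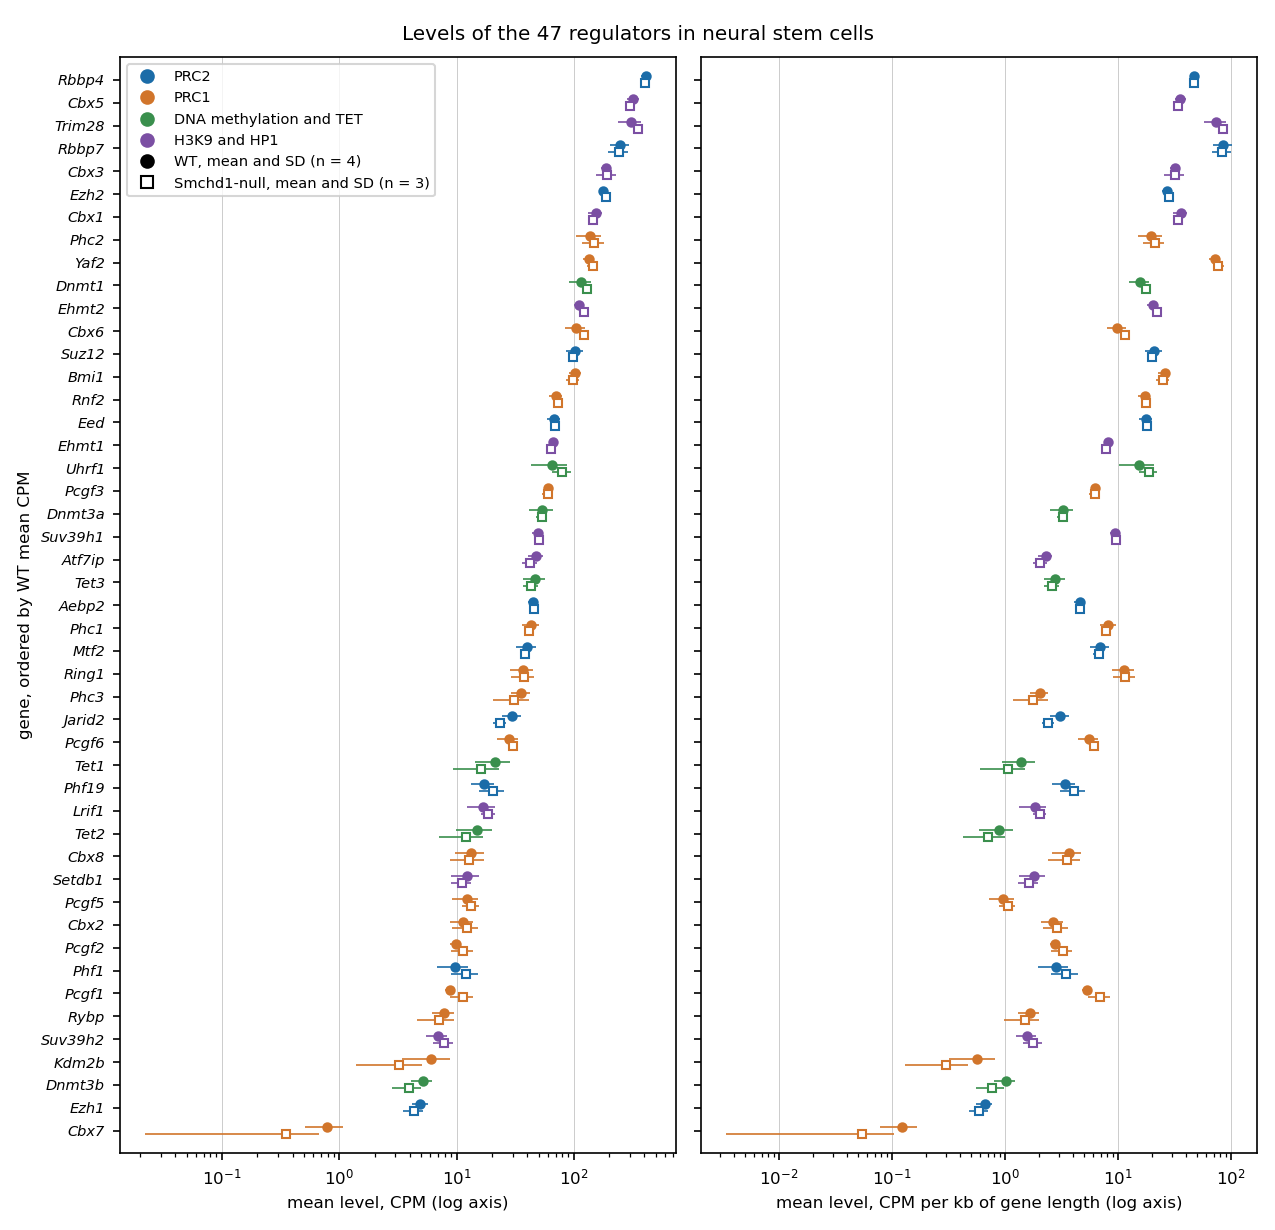
Mean level of each of the 47 genes in CPM (left) and in CPM per kb of gene length (right), on log axes, in order of the WT mean in CPM, with circles for WT (n = 4), open squares for *Smchd1*-null samples (n = 3), bars for the SD and colours for the family. Rbbp4, Cbx5 and Trim28 lie at the top on the left and Cbx7 at the bottom of both panels, Yaf2 and Rbbp7 lie further right among their neighbours per kb, and the circles and squares of a gene lie close together.

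In none of these genes did the genotypes differ past the thresholds of the study. At a limma adjusted p under 0.25, 0 of the 46 tested members were called, against 1.08% of all tested genes, and the smallest adjusted p was 0.294, for Kdm2b. Unadjusted p-values under 0.05 were found for 4 members that were lower in *Smchd1*-null samples (Kdm2b, Tet1, Phc3 and Jarid2), against 6.74% of all tested genes lower, and for 0 members that were higher, against 7.11%. edgeR's quasi-likelihood test and DESeq2 gave 0 members with an adjusted p under 0.25 and 0 with an unadjusted p under 0.05, and their smallest adjusted p-values were 0.858 and 0.997. Without sample weights, edgeR gave log2 fold changes of -0.83 for Kdm2b, -0.40 for Tet1, -0.21 for Phc3 and -0.34 for Jarid2. In no member were the genotypes without overlap in log-CPM, against 5.53% of all tested genes. Of the 46 log2 fold changes 21 were above 0 and 25 below, with a median of -0.016 beside 0.005 over all genes.

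The precision of the differences can be read from their intervals. The 95% interval of the genotype difference lay within a 1.5-fold change in both directions for 29 of the 46 genes and within a 2-fold change for 42. The intervals that reached past a 2-fold change were those of Kdm2b, Dnmt3b, Tet1 and Rybp. The median width on either side was 0.349 on the log2 scale. Leaving out 1 library altered the count of calls in 2 cases: at an adjusted p under 0.25, 7 members were called without WT replicate 2, against 22.7% of all genes then tested, and 6 without *Smchd1*-null replicate 3, against 23.5%. Without the first, WT replicate 1 was the only WT sample with reads from batch 1, and without the second, no *Smchd1*-null sample was left in batch 2. Jarid2, Phc2, Phc3, Kdm2b and Tet1 were in both sets, with Cbx6 and Tet2 in the first set and Dnmt3b in the second. Phc2 and Cbx6 were higher in *Smchd1*-null samples and the others lower, with limma adjusted p-values from 0.0824 (Tet1) to 0.247 (Tet2).

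**Figure D2:**
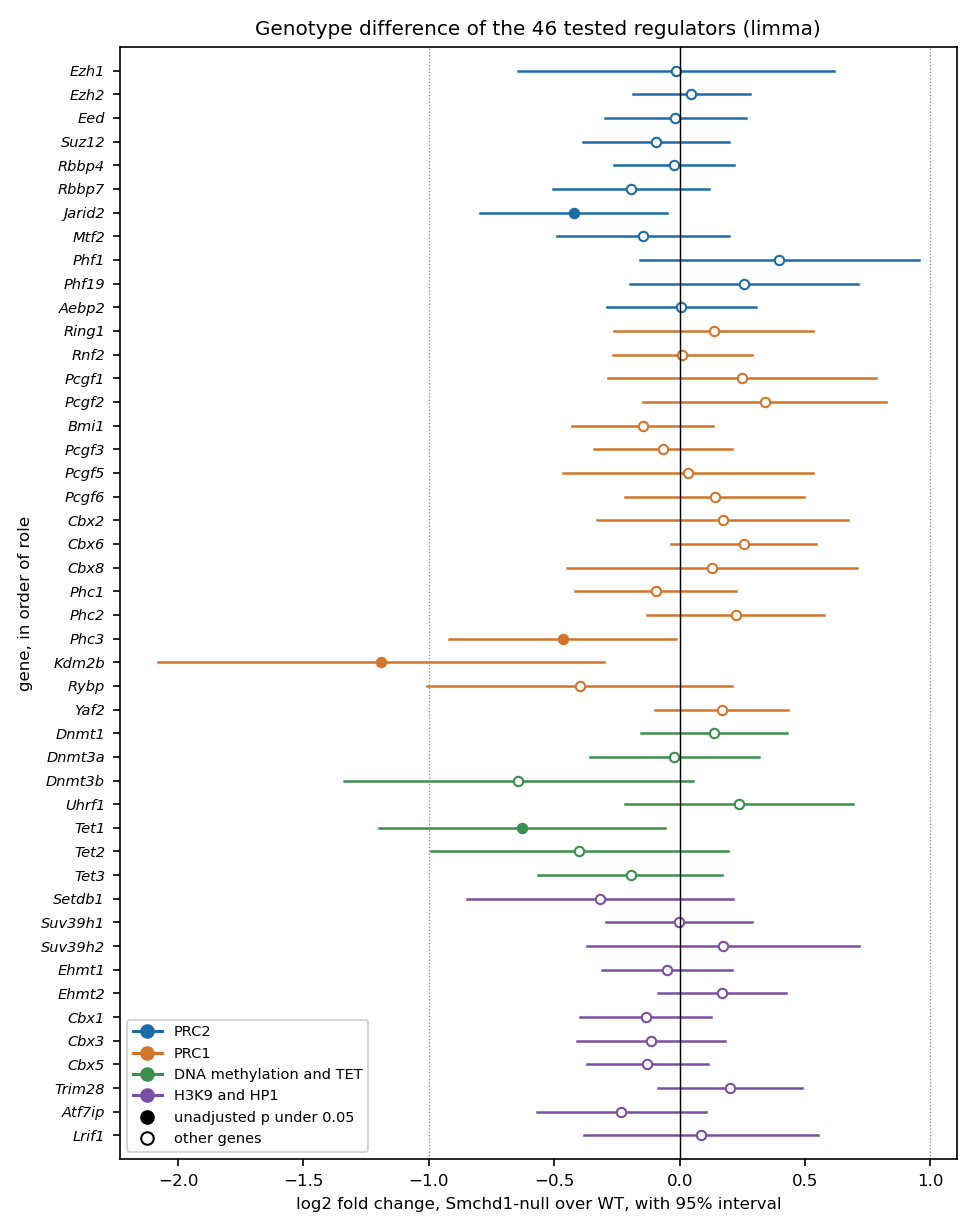
Log2 fold change (*Smchd1*-null over WT, limma, 7 samples) of the 46 tested genes with its 95% interval, in order of role, with filled points for an unadjusted p under 0.05 and dotted lines at a 2-fold change. Kdm2b, Tet1, Phc3 and Jarid2 are the filled points, all to the left of 0, and 42 intervals lie between the dotted lines.

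PRC2 was represented by its core, at summed levels of 881 to 1119 CPM in WT and 952 to 1046 CPM in *Smchd1*-null samples. Ezh2, at chr6:47530139-47595341 on GRCm38, encodes the methyltransferase of dividing cells. It stood at 189, 184, 185 and 157 CPM in WT replicates 1 to 4 and 185, 190.4 and 190.5 CPM in *Smchd1*-null replicates 1 to 3. The value of WT replicate 4 was low and the other 6 lay between 184 and 190.5 CPM, with a log2 fold change of 0.047 (95% interval -0.19 to 0.28) and of 0.009 without that library. Ezh1, the less active enzyme of resting cells, stood at 5.37, 4.66, 3.93 and 5.66 CPM in WT and 4.13, 5.32 and 3.68 CPM in *Smchd1*-null samples. The groups overlapped, with a log2 fold change of -0.014 (95% interval -0.65 to 0.62), on 11 to 40 counts per library. Ezh2 was 37.4-fold higher than Ezh1 in CPM on average in WT, and between 27.8-fold and 51.8-fold higher in the 7 samples, and per kb it was 41.7-fold higher.

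In the other core subunits the groups overlapped. Eed, which binds the mark that PRC2 makes, ranged over 61 to 80 CPM, and Suz12, the scaffold of the complex, over 90.2 to 129 CPM. Their log2 fold changes were -0.018 (95% interval -0.30 to 0.26) and -0.094 (95% interval -0.38 to 0.20). Rbbp4 ranged over 359 to 444 CPM and its paralog Rbbp7 over 208 to 298 CPM. Rbbp7 was lower in samples of batch 1 than in batch 2, apart from WT replicate 4, with a coefficient for batch of 0.41 (limma adjusted p = 0.0299).

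Among the accessory subunits of PRC2, Jarid2, at chr13:44729474-44921643, stood out by its unadjusted p-value. JARID2 helps PRC2 to bind chromatin. Its gene stood at 36.6, 22.9, 30.9 and 29 CPM in WT replicates 1 to 4 and 21, 22.5 and 26.8 CPM in *Smchd1*-null replicates 1 to 3. WT replicate 2, from batch 1, was as low as the *Smchd1*-null samples of that batch, so the groups overlapped. The genotypes differed by a log2 fold change of -0.42 (95% interval -0.80 to -0.050), unadjusted p = 0.0291 and limma adjusted p = 0.327. Within batches, the difference of mean log-CPM between *Smchd1*-null and WT samples was -0.072 in batch 1 and -0.15 in batch 2. Here and below, this difference used no weights and left out WT replicate 1. Batch 1 then held a lone WT sample and batch 2 a lone *Smchd1*-null sample. Batch 1 and batch 2 samples did not overlap in this gene.

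The Polycomb-like proteins Phf1, Mtf2 and Phf19 link PRC2 to CpG-rich DNA. Per kb, Mtf2 was the highest of them in WT at 6.94 ± 1.33 CPM per kb (SD, n = 4), against 3.39 ± 0.773 for Phf19 and 2.8 ± 0.825 for Phf1. In CPM the order was the same, with 32.8 to 49.1 CPM, 11.8 to 25.9 CPM and 7.08 to 15.4 CPM in the 7 samples. The log2 fold changes of Phf1 and Phf19 were 0.40 (95% interval -0.16 to 0.95) and 0.26 (95% interval -0.20 to 0.71), with the 3 batch 2 samples below the 3 batch 1 samples in both genes. Of the exons of Phf1, 39.3% overlap Cuta on the other strand, which had 4515 counts in all against 348, and the counting is not stated to use strand, so the count of Phf1 is uncertain. For Mtf2, 6.9% of its exons overlap Tmed5 on the other strand, which had 3233 counts in all against 1258. Its count may hold reads of Tmed5 too. Aebp2, of the other form of PRC2, ranged over 41.7 to 51.4 CPM, and its log2 fold change was 0.007 (95% interval -0.29 to 0.30).

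The catalytic subunits of PRC1 were both expressed. Rnf2 stood at 67.6, 66.4, 83.9 and 65 CPM in WT and 74.3, 71.3 and 74.9 CPM in *Smchd1*-null samples. All values but that of WT replicate 3 lay between 65.0 and 74.9 CPM, with a log2 fold change of 0.011 (95% interval -0.27 to 0.29). Ring1 stood at 42, 44.9, 29.4 and 30.5 CPM in WT and 43.2, 41 and 27.7 CPM in *Smchd1*-null samples. Here the split was by batch and not by genotype: the 3 samples of batch 2 had 27.7 to 30.5 CPM and those of batch 1 had 41.0 to 44.9 CPM. The batch coefficient was -0.58 (limma adjusted p = 0.0147), beside a log2 fold change between genotypes of 0.14 (95% interval -0.26 to 0.53).

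The PCGF subunits decide which form of PRC1 is built. Per kb, Bmi1, of canonical PRC1, was the highest in WT at 25.8 ± 3.12 CPM per kb (SD, n = 4), while its close relative Pcgf2 had 2.79 ± 0.302. In CPM Bmi1 was the highest too, and they ranged over 87.1 to 115 CPM and 8.88 to 14 CPM. Pcgf3, Pcgf6 and Pcgf5 ranged over 55.1 to 67.3 CPM, 19.9 to 32.3 CPM and 9.55 to 16.6 CPM. Pcgf1, the partner of Kdm2b, ranged over 7.57 to 13.5 CPM, and the log2 fold change was 0.25 (95% interval -0.28 to 0.78). Its difference of mean log-CPM within batches was 0.17 in batch 1 and 0.39 in batch 2. In 0 of the 6 PCGF genes was the unadjusted p under 0.05. Pcgf3 and Pcgf5, of the variant complexes that start the recruitment of SMCHD1 to an inactive X chromosome, had log2 fold changes of -0.067 (95% interval -0.34 to 0.21) and 0.032 (95% interval -0.47 to 0.53).

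Of Cbx2, Cbx6, Cbx7 and Cbx8, chromodomain readers of canonical PRC1, Cbx6 was the highest per kb in WT at 9.85 ± 1.95 CPM per kb (SD, n = 4), followed by Cbx8 at 3.64 ± 1.02 and Cbx2 at 2.65 ± 0.575, whose ranges overlapped. In CPM the WT means were 104 ± 20.6, 13.4 ± 3.74 and 11.3 ± 2.45, in the same order. Their log2 fold changes were 0.26 (95% interval -0.034 to 0.54), 0.13 (95% interval -0.45 to 0.71) and 0.17 (95% interval -0.33 to 0.67). Of the polyhomeotic subunits, which polymerise, Phc1 ranged over 38.4 to 54.2 CPM. Phc2 ranged over 106 to 179 CPM and was lower in batch 2 with a batch coefficient of -0.61 (limma adjusted p = 0.0038).

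Phc3, at chr3:30899371-30969415, went the other way. It stood at 33.2, 28.6, 44.3 and 36.5 CPM in WT replicates 1 to 4 and 28.9, 21.6 and 42.4 CPM in *Smchd1*-null replicates 1 to 3. The batch 2 samples, with 36.5 to 44.3 CPM, were all above the batch 1 samples, with 21.6 to 28.9 CPM, in both genotypes. The batch coefficient was 0.70 (limma adjusted p = 0.0119). Between genotypes the log2 fold change was -0.47 with a 95% interval of -0.92 to -0.013 (unadjusted p = 0.0447, limma adjusted p = 0.348), and -0.11 (unadjusted p = 0.456) with the batch share in the model. Phc3 has a gene length of 17.5 kb, and without each sample's trend of log-CPM on gene length its log2 fold change was -0.19.

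Kdm2b, at chr5:122870665-122989823, showed the largest fold change of the 46 genes. It encodes the subunit that guides variant PRC1 to unmethylated CpG islands. It stood at 8.55, 4.89, 8.13 and 2.92 CPM in WT replicates 1 to 4 and 1.5, 3.06 and 5.2 CPM in *Smchd1*-null replicates 1 to 3. *Smchd1*-null replicate 1 was the lowest with 4 counts, but WT replicate 4 lay below *Smchd1*-null replicates 2 and 3, so the groups overlapped. The log2 fold change was -1.19 with a 95% interval of -2.08 to -0.30 (unadjusted p = 0.0123, limma adjusted p = 0.294). Within batches the difference of mean log-CPM was -1.04 in batch 1 and 0.073 in batch 2. Without WT replicate 4 the limma log2 fold change was -1.41. edgeR gave a log2 fold change of -0.83 with an unadjusted p of 0.0976. The gene had 156 counts in all, and its exons overlap Rnf34 and A930024E05Rik on the other strand, with 1011 and 755 counts, so its count is uncertain.

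**Figure D3:**
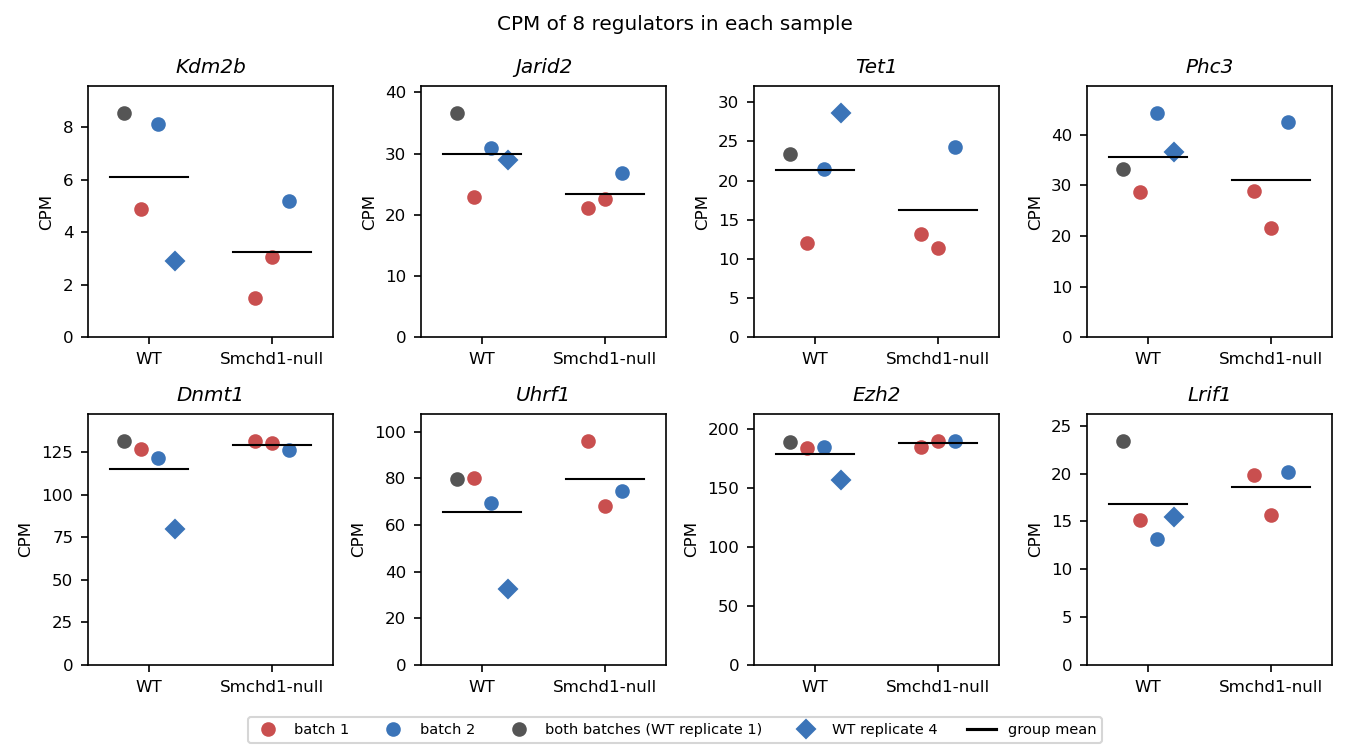
CPM of 8 genes in each sample, by genotype, with colours for the batch, a diamond for WT replicate 4 and a line for the group mean. In Tet1 and Phc3 the batch 2 points lie above the batch 1 points in both genotypes, and in Dnmt1, Uhrf1 and Ezh2 the diamond lies below all other points.

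The other subunits of variant PRC1 were the paralogs Rybp and Yaf2, which take the place of a CBX protein. Yaf2 ranged over 119 to 155 CPM and Rybp over 5.06 to 9.74 CPM, and their log2 fold changes were 0.17 (95% interval -0.098 to 0.43) and -0.40 (95% interval -1.01 to 0.21). In CPM Yaf2 was 18.4-fold higher than Rybp on average in WT, with 13-fold to 30.5-fold over the 7 samples. Per kb it was 46.5-fold higher, since the annotated Rybp gene is longer. A processed pseudogene, Rybp-ps, had 75 counts beside 243 for Rybp, so reads of Rybp may be split between them.

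The DNA methyltransferases differed in level, with WT means of 115 ± 23.7 CPM for Dnmt1 (SD, n = 4), 54 ± 12.3 for Dnmt3a and 5.14 ± 1.05 for Dnmt3b. Per kb the means were 15.6 ± 3.21, 3.25 ± 0.738 and 1.01 ± 0.207 CPM per kb. Dnmt1, at chr9:20907209-20959888, stood at 132, 127, 121 and 80.1 CPM in WT replicates 1 to 4 and 132, 130.2 and 127 CPM in *Smchd1*-null replicates 1 to 3. WT replicate 4 was far below the other 6, which lay between 121 and 132 CPM. The log2 fold change was 0.14 (95% interval -0.15 to 0.43), and 0.040 without that library. Uhrf1, which guides Dnmt1 to newly copied DNA, stood at 79.8, 80, 69.5 and 32.6 CPM in WT replicates 1 to 4 and 96.1, 68.3 and 74.5 CPM in *Smchd1*-null replicates 1 to 3. WT replicate 4 was again the lowest, and the log2 fold change went from 0.24 (95% interval -0.22 to 0.69) to 0.058 without it.

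Dnmt3a, which sets methylation de novo, stood at 59.1, 39.1, 50.1 and 67.7 CPM in WT and 50.3, 50.2 and 60.4 CPM in *Smchd1*-null samples. WT replicate 4 was the highest here and the groups overlapped, with a log2 fold change of -0.021 (95% interval -0.36 to 0.32). Dnmt3b, the enzyme of the early embryo, stood at 6.59, 4.44, 5.24 and 4.29 CPM in WT and 4.5, 2.66 and 4.55 CPM in *Smchd1*-null samples. *Smchd1*-null replicate 2 was the lowest and WT replicate 1 the highest, and the other 5 values were within 4.29 to 5.24 CPM. The log2 fold change was -0.64 with a 95% interval of -1.34 to 0.053 (unadjusted p = 0.0677), on 12 to 27 counts per library. In CPM Dnmt3b was at 0.0983-fold the level of Dnmt3a on average in WT, and per kb at 0.32-fold, and it was lower than Dnmt3a in all 7 samples on both scales.

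The log2 fold changes of the 3 TET genes were below 0, and their batch coefficients were above 0, with a limma adjusted p under 0.05 for Tet1 and Tet2 and of 0.121 for Tet3. Tet1, at chr10:62804570-62908996, stood at 23.4, 12, 21.5 and 28.6 CPM in WT replicates 1 to 4 and 13.1, 11.4 and 24.2 CPM in *Smchd1*-null replicates 1 to 3. The 3 batch 1 samples had 11.4 to 13.1 CPM and the 3 batch 2 samples 21.5 to 28.6 CPM, without overlap, and WT replicate 1, from both batches, lay among the latter. The batch coefficient was 0.99 (limma adjusted p = 0.00603). Between genotypes the log2 fold change was -0.63 with a 95% interval of -1.20 to -0.059 (unadjusted p = 0.0328, limma adjusted p = 0.333). Within batches the difference of mean log-CPM was 0.031 in batch 1 and -0.033 in batch 2. With the batch share in the model the log2 fold change was -0.064.

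Tet2 ranged over 7.51 to 21.1 CPM, and the log2 fold change was -0.40 (95% interval -0.99 to 0.19). Its difference of mean log-CPM within batches was 0.018 in batch 1 and 0.025 in batch 2. Tet3 ranged over 34.6 to 58.4 CPM, and the log2 fold change was -0.20 (95% interval -0.56 to 0.17). Its difference of mean log-CPM within batches was 0.22 in batch 1 and 0.077 in batch 2. Tet3 was the highest of the TET genes in WT at 46.5 ± 9.69 CPM, against 21.4 ± 6.95 for Tet1, and also per kb at 2.79 ± 0.58 against 1.38 ± 0.45 CPM per kb. The 3 genes are among the longest of the list, with 15.5, 16.9 and 16.7 kb. Without the length trend their median log2 fold change went from -0.40 to -0.15.

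The H3 lysine 9 methyltransferases gave 0 unadjusted p-values under 0.05 among 5 genes. Setdb1, which acts with Trim28 on repeats and imprinted regions, stood at 14.2, 11.6, 15.5 and 8.06 CPM in WT and 13.1, 8.78 and 11.5 CPM in *Smchd1*-null samples, and the log2 fold change was -0.32 (95% interval -0.85 to 0.21). Suv39h1, which methylates pericentric heterochromatin, stood at 44.9, 52.6, 55.3 and 45.3 CPM in WT and 46.9, 50.8 and 53.7 CPM in *Smchd1*-null samples. Its values lay close together, with a log2 fold change of -0.004 (95% interval -0.29 to 0.29). Suv39h2, its paralog, stood at 8.55, 6.88, 7.08 and 5.14 CPM in WT and 9.38, 7.85 and 6.28 CPM in *Smchd1*-null samples, and the log2 fold change was 0.17 (95% interval -0.37 to 0.72) on 25 to 59 counts per library.

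Ehmt1 and Ehmt2 encode GLP and G9a, which act as a pair on euchromatin. Ehmt1 stood at 68.6, 66.2, 67.4 and 63.3 CPM in WT and 66.8, 65.1 and 58.5 CPM in *Smchd1*-null samples. It had the smallest within-group SD of the list, 0.075 on the log2 scale, and its log2 fold change was -0.050 (95% interval -0.31 to 0.21). Ehmt2 stood at 111, 126, 105 and 100.5 CPM in WT and 129.5, 123 and 110.4 CPM in *Smchd1*-null samples, and the log2 fold change was 0.17 (95% interval -0.087 to 0.42). The ratio of Ehmt2 to Ehmt1 in CPM was 1.67 on average in WT, and per kb it was 2.47. In CPM it ran over 1.56 to 1.91 in the WT samples and 1.89 to 1.94 in *Smchd1*-null samples. Within batches, without WT replicate 1, the log2 ratio of *Smchd1*-null samples differed from WT by 0.008 in batch 1 and 0.263 in batch 2.

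The HP1 proteins bind methylated H3 lysine 9. Cbx1 stood at 176, 142, 166 and 128 CPM in WT and 139.6, 148 and 147 CPM in *Smchd1*-null samples. Cbx3 stood at 202, 168, 208 and 181 CPM in WT and 156, 187 and 232 CPM in *Smchd1*-null samples. Cbx5 stood at 366, 300.1, 331 and 287 CPM in WT and 307, 289 and 315 CPM in *Smchd1*-null samples. In all 3 genes the groups overlapped, with log2 fold changes of -0.14 (95% interval -0.40 to 0.13), -0.12 (95% interval -0.41 to 0.18) and -0.13 (95% interval -0.37 to 0.11). Cbx3 has 8 annotated processed pseudogenes, of which Cbx3-ps7 drew 163 counts beside 6323 for Cbx3.

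Trim28 stood at 315, 374, 328 and 212 CPM in WT and 372, 364 and 322 CPM in *Smchd1*-null samples, again with WT replicate 4 the lowest, and its log2 fold change was 0.20 (95% interval -0.087 to 0.49), or 0.11 without that library. Atf7ip, the partner of Setdb1, ranged over 36.1 to 55.9 CPM, and its log2 fold change was -0.23 (95% interval -0.57 to 0.10). Lrif1, at chr3:106684987-106736577, encodes the protein that binds both SMCHD1 and HP1. It stood at 23.4, 15.1, 13.1 and 15.4 CPM in WT replicates 1 to 4 and 19.9, 15.7 and 20.1 CPM in *Smchd1*-null replicates 1 to 3. WT replicate 1 was the highest of all and the other WT samples lay between 13.1 and 15.4 CPM, so the groups overlapped. Its log2 fold change was 0.085 (95% interval -0.38 to 0.55), and 0.22 without the length trend. Its difference of mean log-CPM within batches was 0.22 in batch 1 and 0.49 in batch 2.

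Several differences between samples did not follow genotype. WT replicate 4 was the lowest sample in 22 of the 46 genes (47.8%), beside 22.2% of all tested genes, and the highest in 4. Its log2 difference from the median of the other 6 samples was -1.23 for Uhrf1, -0.71 for Kdm2b, -0.70 for Trim28, -0.68 for Phf19, Dnmt1 and Cbx2 and -0.66 for Pcgf6. It was above that median by 0.76 for Tet2, 0.75 for Tet1, 0.43 for Dnmt3a and 0.34 for Ezh1, the 4 genes in which it was the highest. The median of this difference was -0.15 over the 46 genes and 0.003 over all tested genes. Of the genes with an E2F motif match, Ezh2 differed by -0.25, Suv39h1 by -0.19, Suz12 by -0.11 and Cbx3 by -0.10, beside Uhrf1, Dnmt1 and Phf19 above. Kdm2b, Trim28 and Pcgf6 had no match in their windows, and Cbx2 had no window. A link between the matches and the levels in WT replicate 4 was not tested. In the same library 14 of the 15 proliferation genes were the lowest, with Pcna at 214.5 CPM against 314 to 467 CPM and Tyms at 35.3 against 62.1 to 97.2 CPM. The part of the proliferation genes and of the astrocyte, oligodendrocyte and neuron genes in these levels was not tested. Between genotypes 0 of the 15 proliferation genes were called at an adjusted p under 0.25, and Pcna and Mcm5 had unadjusted p-values under 0.05, both higher in *Smchd1*-null samples, where 7.11% of all tested genes were. edgeR and DESeq2 gave 0 of the 15 with an unadjusted p under 0.05. Without WT replicate 2 the adjusted count was 7, against 22.7% of all genes then tested, and without *Smchd1*-null replicate 3 it was 3, against 23.5%.

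Batch was tested beside genotype. The model held genotype and a batch share, in which WT replicate 1 was set midway between batch 1 and batch 2. This was an assumption, as its share of reads from each batch was not measured. In this model 5 members were higher in batch 2 at a limma adjusted p under 0.05 (Rbbp7, Phc3, Cbx3, Tet1 and Tet2), against 5.55% of all tested genes. By the same test 2 were lower (Ring1 and Phc2), against 6.87%. The samples of batch 1 alone and batch 2 alone did not overlap in 8 members that were higher in batch 2, against 15.3% of all tested genes, and in 9 that were lower, against 17.3%. As shares of the 46 members these were 10.9% higher and 4.35% lower by the test, and 17.4% higher and 19.6% lower without overlap. Of the 4 genes with an unadjusted p under 0.05 between genotypes, Jarid2, Phc3 and Tet1 were without overlap between batches. With the batch share in the model, 0 of the 46 genes had an unadjusted p under 0.05 between genotypes, against 7.97% of all tested genes. The sign of the difference was the same in both batches for 30 of the 46 genes (65.2%) and for 55% of all tested genes, where batch 1 held a lone WT sample and batch 2 a lone *Smchd1*-null sample.

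**Figure D4:**
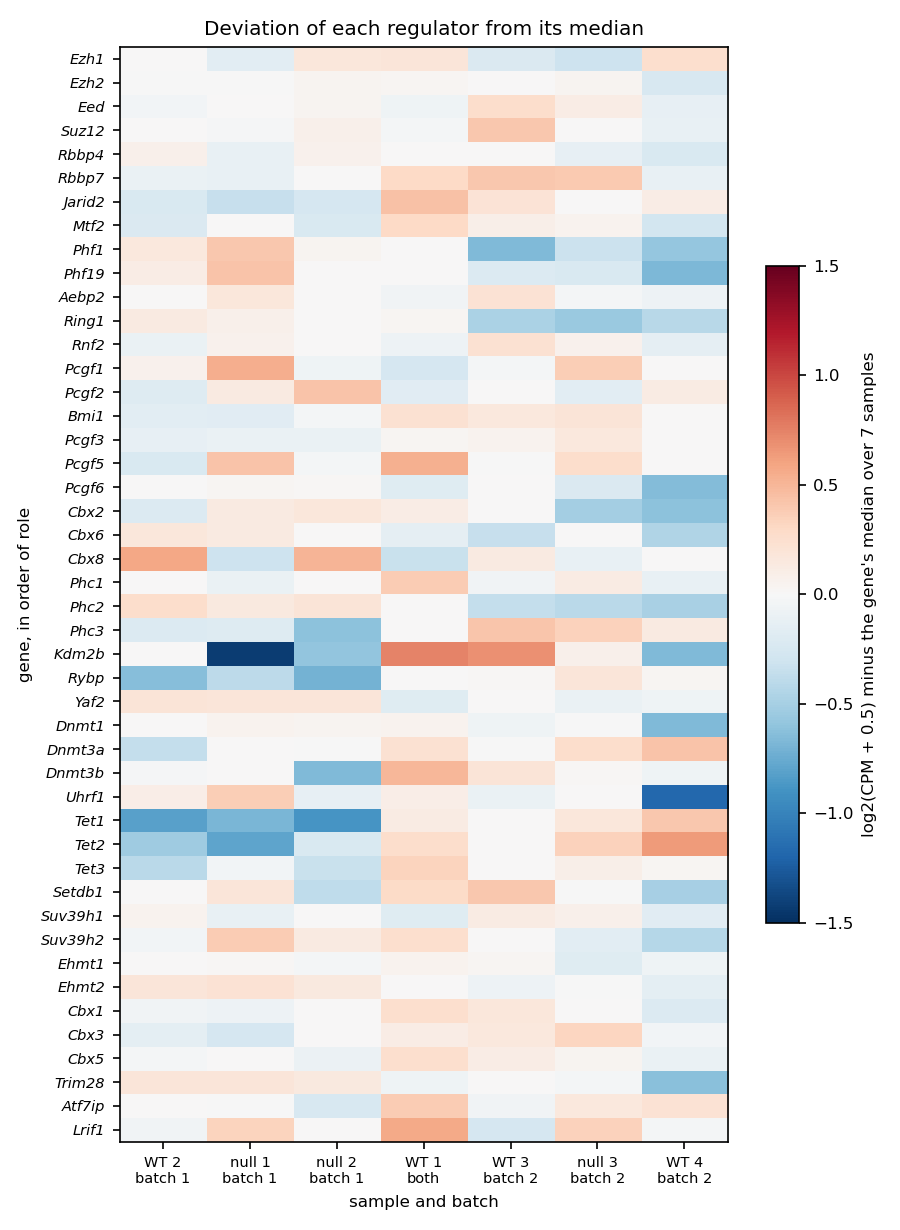
Log2(CPM + 0.5) of the 46 tested genes in each sample, minus the median of the gene over the 7 samples, with samples in order of batch and red for higher values. The column of WT replicate 4 holds the blue cells of Uhrf1, Dnmt1, Trim28 and Phf19, and the rows of Tet1, Tet2 and Phc3 change colour between batch 1 and batch 2.

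Gene length moved with the fold change as well. The members were longer than other genes, with a median of 5.59 kb against 4.16 kb over all tested genes. Across the 46 members the Spearman correlation of length with log2 fold change was -0.47, and across all 13305 genes, which share these 7 libraries, it was -0.38, with longer genes lower in *Smchd1*-null samples. Without the length trend it was -0.16 over the members. The median log2 fold change of the members was then 0.076, and 2 genes had an unadjusted p under 0.05, against 9.62% of all tested genes: Kdm2b, lower, and Cbx6, higher.

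Ratios of paralogs within a sample do not depend on how a library is scaled. For 13 pairs the log2 ratio was compared between genotypes by an exact permutation test over the 35 assignments of 4 and 3 samples, two-sided, which cannot go below p = 0.0286. A lone pair at this lowest p could not reach an adjusted p under 0.25 among 13 pairs, even with genotypes fully apart. That 0 of the 13 pairs passed this threshold thus does not show that no ratio differed. The smallest p was 0.114 for Ehmt2 over Ehmt1 (adjusted p = 0.681, exact permutation), with a difference of 0.20 on the log2 scale. Ezh2 over Ezh1 differed by 0.24 (p = 0.314), Dnmt3b over Dnmt3a by -0.42 (p = 0.229) and Phf19 over Mtf2 by 0.29 (p = 0.257), all by the same exact test. Which paralog had more counts was the same in all 7 samples for 13 of the 13 pairs. Division by gene length turned the order of 1 pair in all 7 samples, Rbbp7 over Rbbp4, where Rbbp4 had more counts and Rbbp7 more counts per kb, and that of Cbx3 over Cbx5 in 1 sample.

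**Figure D5:**
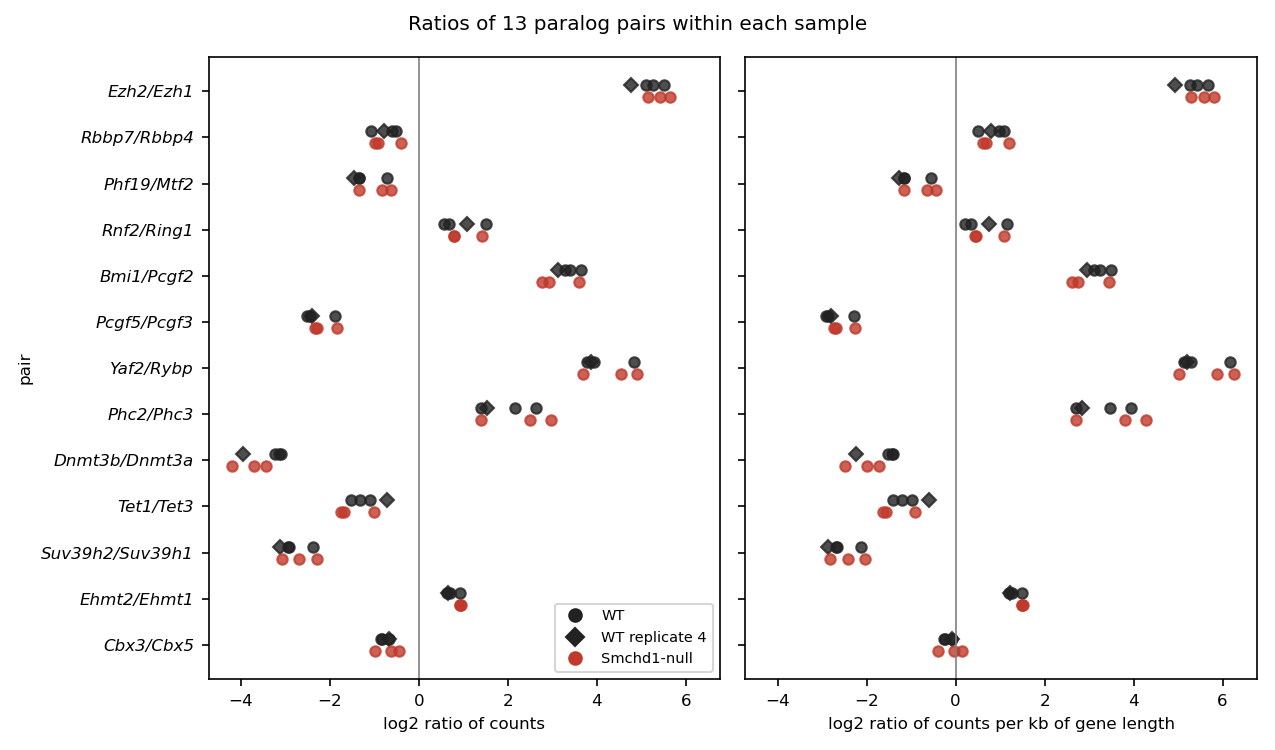
Log2 ratio of counts (left) and of counts per kb (right) of 13 paralog pairs in each sample, with black for WT, a diamond for WT replicate 4 and red for *Smchd1*-null samples. The ratios of Ezh2 over Ezh1, Yaf2 over Rybp and Bmi1 over Pcgf2 lie well to the right of 0 in both panels. On the left all 7 points of a pair lie on the same side of 0, and Rbbp7 over Rbbp4 changes side on the right.

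A wider list of 57 partners of the same pathways was set beside the members, of which 56 were found and 54 tested. At an adjusted p under 0.25, 0 of the 54 were called, 15 log2 fold changes were above 0 and 39 below (72.2%, against 49.4% of all tested genes), and the median was -0.12, or -0.020 without the length trend. Unadjusted p-values under 0.05 were found for 3 genes that were higher and 5 that were lower, against 7.11% and 6.74% of all tested genes. edgeR and DESeq2 called 0 of the 54 at an adjusted p under 0.25, with 0 and 1 at an unadjusted p under 0.05. Without WT replicate 2 the count of calls by limma was 16, against 22.7% of all genes then tested, and without *Smchd1*-null replicate 3 it was 17, against 23.5%. Genotypes did not overlap in 3 of these genes, beside the 5.53% of all tested genes given above. Chaf1b, a subunit of the chromatin assembly factor of replicating cells, stood at 43, 46, 38.3 and 18 CPM in WT and 51.8, 53.2 and 49.6 CPM in *Smchd1*-null samples, and the log2 fold change was 0.51 with a 95% interval of 0.081 to 0.93 (unadjusted p = 0.023, limma adjusted p = 0.321). WT replicate 4 was its lowest sample too. Uhrf2, the paralog of Uhrf1, stood at 60.8, 58.2, 59 and 66.9 CPM in WT and 50.3, 53.2 and 51.7 CPM in *Smchd1*-null samples. Mbd2, which binds methylated DNA, stood at 74, 76.8, 77.6 and 73.2 CPM in WT and 67.2, 70.3 and 72.3 CPM in *Smchd1*-null samples. Uhrf2 and Mbd2 were lower in all 3 *Smchd1*-null samples than in any WT sample, with log2 fold changes of -0.22 with a 95% interval of -0.48 to 0.047 (limma adjusted p = 0.425) and -0.12 with a 95% interval of -0.38 to 0.13 (limma adjusted p = 0.626).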

How the data were processed

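Gene counts of nanopore direct cDNA from 4 WT and 3 *Smchd1*-null NSC samples were used. The deposited counts are whole numbers per gene, not normalised. To make them, the authors called bases with Guppy, aligned reads to mm10 with minimap2 2.17 and counted primary alignments with featureCounts in long-read mode on Gencode M23. They summed the reads of WT replicate 1 over both batches. Strand use in counting is not given in the sources used here, so overlapping genes, antisense genes and pseudogenes can share reads. The files also hold the authors' gene length in bases.

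Symbols and coordinates came from Gencode M21, which is on the same GRCm38 build, with the version of the identifier ignored, and promoter windows came from RefSeq on GRCm38.p6. Genes were kept by filterByExpr with genotype as group, and library sizes were scaled by TMM (edgeR 4.0.16). Following the study's methods, limma 3.58.1 (R 4.3.3) was run as voomWithQualityWeights, lmFit and eBayes on all 7 samples with genotype as the only term. Tests were two-sided, and p-values of the 13305 genes kept were adjusted by Benjamini and Hochberg's method. Thresholds were adjusted p-values of 0.05 and 0.25. Log-CPM values used a prior count of 2, and paralog ratios used counts + 0.5. Library sizes ran from 2.74 to 7.74 M counts, and a count of 3, taken as the floor, was 0.399 to 1.13 CPM.

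The members, the further gene lists and the tests were chosen with earlier results of these data known. Values of every sample are given for Ezh1, Ezh2, Ring1, Rnf2, the Dnmt genes, the H3 lysine 9 methyltransferases, the HP1 genes and Lrif1, and for other members with an unadjusted p under 0.05 or no overlap of genotypes. From the wider list, genes with an adjusted p under 0.25, or up to 6 without overlap, were to be named. Members named beyond this rule (Uhrf1 and Trim28) and genes of the proliferation list were picked for their values in WT replicate 4.

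The alternatives tried were DESeq2 1.42.0, the quasi-likelihood test of edgeR, voom without sample weights, other scaling and filters, the batch share as a covariate, the replicate number as a block, removal of the length trend (lowess, span 0.3), thinning to the smallest library, and each sample left out in turn. The batch share of WT replicate 1 was an assumed midpoint between the batches. edgeR with the batch share and unweighted voom without the length trend were added after seeing the data. The fits were also run on simulated counts with known fold changes and, in a separate run, with a length trend. No batch effect was simulated, so these runs do not cover the batches of these data. No other column of the files was used.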

Additional observations from a re-analysis of the deposited data

Results flagged for a closer look

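A single sample lay far from the others of its group (Dixon's test at the 95% level) in 8 of 72 checks, made in the 4 WT samples only, where chance would give 3.6. Of the 8, 4 were in WT replicate 4. In log-CPM, that library had 7.302 for Ezh2 against 7.526 to 7.566 in the other WT samples, 6.331 for Dnmt1 against 6.929 to 7.045 and 5.045 for Uhrf1 against 6.127 to 6.329. Its log2 ratio of Dnmt3b over Dnmt3a was -3.955 against -3.224 to -3.106. WT replicate 2 had a log-CPM of 2.525 for Rybp against 3.165 to 3.197, a log2 ratio of Yaf2 over Rybp of 4.835 against 3.782 to 3.947, and a log2 ratio of Phf19 over Mtf2 of -0.725 against -1.462 to -1.342. WT replicate 3 had a log-CPM of 6.398 for Rnf2 against 6.032 to 6.089. The ratios share their counts with the single genes, so the 8 are not independent of each other.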

How the results depend on the processing

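The count of members called at an adjusted p under 0.25 was 0 under each alternative with all samples, and 0 to 7 with a sample left out. The count with an unadjusted p under 0.05, 4 in the report, was 0 with edgeR, DESeq2, unweighted voom (with or without the length trend), the batch share as a covariate (with or without WT replicate 1, or in edgeR), 1 with all genes of at least 1 count or with the length trend removed and the batch share together, 2 with the length trend removed, and 0 to 6 with a sample left out. Deviations of samples with the same number had correlations of -0.038, 0.36 and 0.094, and those with other numbers -0.54 to 0.30. The pairs with 0.36 and 0.30 were both within batch 1. This check therefore cannot tell whether samples with the same number belong together. With the replicate block the count was 1 (Kdm2b), and 2 with the block and the length trend removed, and it changed no call at an adjusted p under 0.25. The wider list had 1 call (Kdm3b) when a gene needed 10 counts or more in each sample, and 0 to 17 with a sample left out, and the proliferation list 0 to 7. Under the 23 alternatives, 16 of the 46 members kept the sign of their log2 fold change, 6 below 0 and 10 above, and 30 changed it at least once, among them Tet1, which ran from -0.83 to 0.007. The median over the members ran from -0.052 with library size alone to 0.076 with the length trend removed. Low counts limit Kdm2b, Dnmt3b, Ezh1 and Suv39h2 most.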
